A study of Rattus norvegicus with 6 samples.

Results

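The core spliceosome snRNP protein genes were taken as the rows of the count table that are typed protein_coding and whose symbol begins with Snrp, Sf3a, Sf3b, Prpf, Lsm and a digit, U2af or U2surp. There were 50 such genes among 20609 rows, and all 50 had enough counts to be tested among 12624 genes. They comprise 11 Snrp, 9 Sf3, 13 Prpf and 13 Lsm genes and 4 of the U2af and U2surp kind. The row Snrpep2 is described as a pseudogene of Snrpe in the file although it is typed protein_coding, and it was kept because the rule takes it. RNA-seq libraries were made from cells labelled PC12, a rat pheochromocytoma line. In 3 of them the cells had received a control plasmid and in the other 3 the PCBP1 overexpression plasmid (PCBP1-OE), in which PCBP-1 carries an EGFP tag according to the methods. No other treatment was named for either group, the harvest time of the RNA-seq cells was not given in the sources used here, and although the study calls its replicates biological, separate cultures or transfections were not described. P-values therefore measure the spread between these libraries only.

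Removal of introns is carried out by the spliceosome, which is built from small nuclear ribonucleoproteins (snRNPs). Each of the U1, U2, U4 and U5 snRNAs is wrapped by a ring of Sm proteins, while U6 is capped at its end by a ring of the related LSm proteins. U1 binds the 5′ splice site, U2AF and U2 with its SF3A and SF3B subcomplexes bind the 3′ splice site and branch point, and the U4/U6.U5 tri-snRNP then joins, after which the Prpf proteins help to rearrange the particle for catalysis. PCBP-1 is a KH-domain protein that binds C-rich RNA and takes part in splicing and translation control.

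The libraries held 19730209 to 22315623 counts on genes, and the members took 0.577% to 0.604% of them. No row was matched to Pcbp1, and the level of the overexpressed gene is therefore not given. The study reported higher PCBP-1 in PCBP1-OE by RT-qPCR and by western blot. Among the markers of the labelled line, Th had 141 to 185 counts per library, but Dbh had 0 to 5, Chga 0 to 3, Chgb 0 to 9 and Ddc 0 to 4, whereas the glial gene Sox10 had 7160 to 9007 and S100b 4143 to 5339. These levels go against the labelled chromaffin origin, and the identity of the cells is in doubt, so PC12 is used here as the label only. The summed level of 5 glial markers was 620 to 664 CPM in controls and 587 to 606 CPM in PCBP1-OE. Summed over 3 fibroblast markers, mostly Pdgfra, it was 224 to 229 and 199 to 211 CPM, and over 4 leukocyte markers 6.82 to 7.76 and 6.13 to 6.22 CPM. The 9 chromaffin markers found summed to 152 to 181 and 141 to 154 CPM, the only list whose groups overlapped, and no marker was at 0 in every library. The part of these levels in the results given here was not tested, and in bulk RNA fewer cells of a type cannot be told apart from less RNA per cell.

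The question was whether PCBP-1 overexpression changed the transcript levels of the splicing machinery itself. At an adjusted p of 0.05 or less, 10 of the 50 members were called, 7 higher and 3 lower in PCBP1-OE. The 7 that rose included Prpf39, Prpf4b, U2surp, Prpf38b, Prpf3 and Lsm14a, and the 3 that fell were Lsm2, Snrpd2 and Snrpa. Thus 14% of the members were called higher against 4.45% of all genes tested, and 6% were called lower against 5%. With upper-quartile scaling, which called 655 of all genes higher and 427 lower where TMM scaling called 562 and 631, the members were at 7 higher and 2 lower. None of the members changed by as much as 2-fold, the threshold used in the study. Their log2 fold changes ran from -0.32 to 0.34, with a median of -0.067, where the median of all genes tested was 0.0029. Groups did not overlap in 23 members, of which 8 (16%) were higher and 15 (30%) lower, against 14.1% and 16.5% of all genes tested. Changes in single genes were resolved to a median standard error of 0.059 on the log2 scale, so differences of a few percent were not detectable.

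The calls depended on which libraries were included, for the members as for all genes. Leaving a library out also makes its group smaller, and the part of this in the lost calls was not tested. Without control replicate 1 or control replicate 2 the number of members called was 0 by edgeR, and of all genes tested 1.92% and 0.375% were called. In these fits 15 and 14 members had an unadjusted p under 0.05, and the matching counts over all genes are not given here. With all libraries 21 of 50 members and 3588 of 12624 genes tested had such a p. Without control replicate 3 the members called were 27 of 50, with 10 higher and 17 lower. The calls over all genes also rose, from 1193 to 2860 (22.3%). Leaving out PCBP1-OE replicate 1 or 2 left 1 call each, Prpf38b, beside 1.32% and 1.06% of all genes. Leaving out PCBP1-OE replicate 3 left 6, beside 5.42% of all genes. The 10 members called with all libraries were among the 27 called without control replicate 3.

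**Figure D1:**
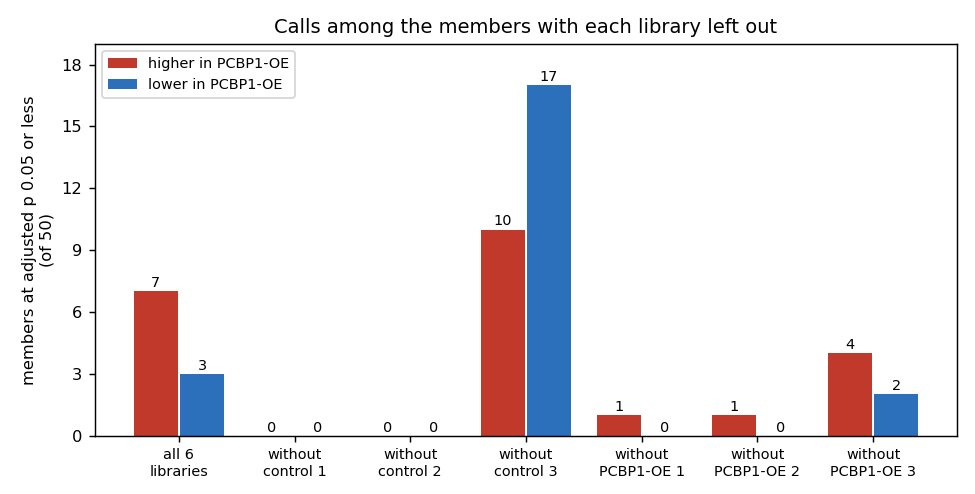
Number of the 50 members at an adjusted p of 0.05 or less (vertical axis) with all 6 libraries and with each library left out (horizontal axis), split into members higher (red) and lower (blue) in PCBP1-OE. The bars fall to 0 without control 1 or control 2 and reach 10 and 17 without control 3.

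The Sm proteins form the ring on which the snRNPs are assembled. Snrpg, also an Sm gene, was not among the members. All 7 Sm genes found had lower fitted levels in PCBP1-OE, with log2 fold changes of -0.31 to -0.050 and a median of -0.15. Only Snrpd2 of them passed the test. Snrpd2 (ENSRNOG00000015844, chromosome 1), which encodes SmD2, was at 120, 118 and 101 CPM in controls and 90.2, 85.8 and 96.7 CPM in PCBP1-OE. All controls lay above all PCBP1-OE libraries, with control replicate 3 nearest to them. This was a log2 fold change of -0.31 with a standard error of 0.065 (adjusted p = 0.0165). The adjusted p rose to 0.0795 to 0.122 when control replicate 1 or 2 or PCBP1-OE replicate 1 or 2 was left out. Snrpd1, for SmD1, was at 157, 165 and 152 CPM in controls and 139, 140 and 147 CPM in PCBP1-OE (log2 fold change -0.16, standard error 0.047, adjusted p = 0.0508), and its groups did not overlap. Snrpb, for SmB, was at 176, 178 and 166 CPM against 155, 154 and 163 CPM, which also did not overlap (adjusted p = 0.0724). In Snrpd3, Snrpe, Snrpf and Snrpn, the last of which encodes the neuronal SmB paralog SmN, the groups overlapped, with adjusted p from 0.159 to 0.552. Without control replicate 3, where 22.3% of all genes were called, 6 of the 7 Sm genes passed, all lower and all but Snrpn. Without control replicate 1 or 2 or PCBP1-OE replicate 1 or 2, the number that passed by edgeR was 0. In these fits 0.375% to 1.92% of all genes were called. At an unadjusted p under 0.05 there were 1 to 3 of the Sm genes in them, and the matching counts over all genes are not given here. With all libraries 4 of the 7 Sm genes and 3588 of 12624 genes tested had such a p. All 7 Sm genes stayed on the negative side under each scaling and with each library left out.

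The LSm ring, formed by Lsm2 to Lsm8, binds the end of U6 snRNA. Of its 7 genes 6 had negative log2 fold changes, with a median of -0.16, and Lsm2 passed the test. Lsm2 (ENSRNOG00000048725, chromosome 20) was at 70.1, 69.1 and 56.5 CPM in controls and 52.2, 50.9 and 54.1 CPM in PCBP1-OE. The groups did not overlap, yet control replicate 3 was closer to the PCBP1-OE libraries than to the other controls. On the log2 scale it fell by 0.32 with a standard error of 0.074 (adjusted p = 0.0237), the largest fall among the members. Omission of control replicate 1 or 2 or of PCBP1-OE replicate 1 or 2 brought the adjusted p to 0.0956 to 0.136. Lsm6 was at 38.5, 39.9 and 36.7 CPM in controls and 31.8, 34.1 and 35.6 CPM in PCBP1-OE, without overlap but with an adjusted p of 0.0956. Lsm3, Lsm4, Lsm5, Lsm7 and Lsm8 overlapped, with log2 fold changes of -0.18 to 0.047. Lsm4, the gene of the ring with the most counts, was at 107, 106 and 91.0 CPM in controls and 85.2, 84.6 and 102 CPM in PCBP1-OE (adjusted p = 0.190). Lsm8, which distinguishes the nuclear ring from the cytoplasmic one, was the only gene of the ring on the positive side, at 55.4, 55.6 and 47.6 CPM against 53.6, 53.2 and 57.0 CPM, but it was on the negative side without control replicate 3. Under upper-quartile scaling Lsm5 was also positive, as it was in 4 of the 6 fits with a library left out.

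The Sm and LSm rings moved together across libraries, within groups as well as between them. In 14 of 14 Sm and LSm ring genes control replicate 3 was the lowest of the controls, and in the same 14 PCBP1-OE replicate 3 was the highest of the PCBP1-OE libraries. Over all genes tested, control replicate 3 was lowest of the controls in 4671 of 12624, and PCBP1-OE replicate 3 highest in 4556. The median deviation of the LSm ring genes from their own mean over the libraries was 0.16, 0.15 and -0.10 on the log2 CPM scale in controls against -0.16, -0.13 and 0.055 in PCBP1-OE. For the Sm genes it was 0.13, 0.14 and -0.066 in controls against -0.11, -0.10 and 0.021 in PCBP1-OE. Control replicate 3 thus lay on the side of PCBP1-OE replicates 1 and 2 for both rings, and PCBP1-OE replicate 3 on the side of the other controls. This grouping of the rings was chosen after the values were seen. The share of all counts on cytosolic ribosomal protein genes was 6.42%, 6.34% and 5.92% in controls against 5.54%, 5.60% and 5.89% in PCBP1-OE, with control replicate 3 the lowest of the controls and PCBP1-OE replicate 3 the highest of its group, but the groups did not cross. Of 82 such genes tested, 75 had control replicate 3 as the lowest control and 74 had PCBP1-OE replicate 3 as the highest PCBP1-OE library, with 24 called lower and 0 higher. The share on mitochondrially encoded genes was 8.42%, 8.24% and 7.99% in controls against 7.53%, 7.91% and 8.21% in PCBP1-OE. The part of these shares in the result for the rings was not tested.

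**Figure D2:**
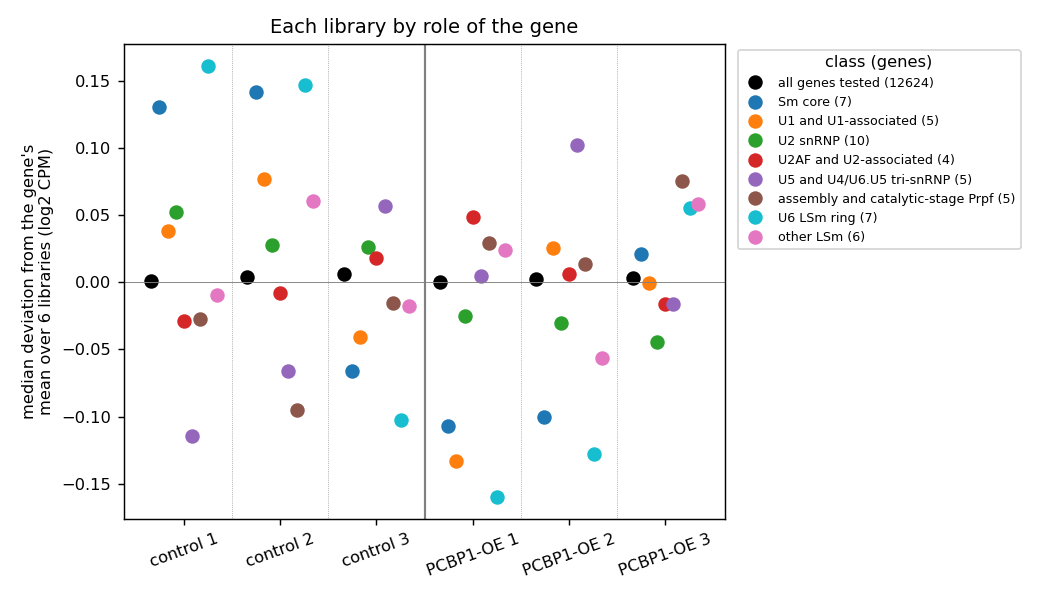
Median deviation of each role class from its genes' means over the 6 libraries (vertical axis, log2 CPM) in every library (horizontal axis), with 1 color per class, the number of genes in the key and all 12624 tested genes in black. The Sm core and U6 LSm ring stand at 0.13 to 0.16 in controls 1 and 2 and below -0.06 in control 3, while all genes tested stay near 0.

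U1 snRNP recognizes the 5′ splice site. Snrpa (ENSRNOG00000001501, chromosome 1), which encodes the A protein bound to a stem loop of U1 snRNA, was at 80.2, 78.5 and 67.3 CPM in controls and 62.8, 61.9 and 66.9 CPM in PCBP1-OE. The groups were separated by less than 1 CPM, between control replicate 3 and PCBP1-OE replicate 3. It fell by 0.24 on the log2 scale (standard error 0.065, adjusted p = 0.0407). Its call was lost without any one library other than control replicate 3, at an adjusted p of 0.0556 to 0.180, and also under upper-quartile scaling. Snrpc, for the C protein of U1, was at 152, 156 and 151 CPM against 135, 147 and 148 CPM, with an adjusted p of 0.221. Prpf39 (ENSRNOG00000004521, chromosome 6), a homolog of a yeast U1 protein, moved the other way. It was at 27.1, 30.1 and 30.6 CPM in controls and 40.2, 34.7 and 36.5 CPM in PCBP1-OE. It rose by 0.34 (log2) with a standard error of 0.075 (adjusted p = 0.0191). This was the largest rise among the members, and every PCBP1-OE library lay above every control. Prpf39 no longer passed without control replicate 1 or 2 or PCBP1-OE replicate 1 or 2 (adjusted p = 0.0527 to 0.110). Prpf40b was at 26.5, 26.2 and 23.7 CPM in controls and 22.3, 24.9 and 23.4 CPM in PCBP1-OE (adjusted p = 0.378).

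The U2 snRNP marks the branch point, and its SF3A and SF3B subunits hold it there. Of its 10 genes 0 passed the test by edgeR, DESeq2 or limma-voom. In each, 3 had an unadjusted p under 0.05, namely Sf3b6, Sf3b4 and Sf3a2 by edgeR, all on the negative side. Over all 12624 genes tested by edgeR, 3588 had an unadjusted p under 0.05, 1866 of them on the negative side. Sf3b6, which sits beside the branch-point adenosine, was at 39.5, 41.0 and 39.4 CPM in controls and 35.4, 34.2 and 36.5 CPM in PCBP1-OE (log2 fold change -0.18, standard error 0.059, adjusted p = 0.0719). Without control replicate 3, 3 of the 10 genes passed, all lower, beside 22.3% of all genes called in either direction. The large scaffold genes differed little. Sf3b1, which encodes the branch-point clamp of SF3B, was at 372, 380 and 403 CPM in controls and 424, 415 and 380 CPM in PCBP1-OE, with overlapping groups and an adjusted p of 0.349. Sf3b2, the member of this class with the most counts, was at 405, 434 and 434 CPM against 423, 427 and 434 CPM. Snrpb2, for the U2B″ protein, was at 73.0, 69.1 and 68.5 CPM against 66.3, 65.1 and 67.6 CPM (adjusted p = 0.291).

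U2AF selects the 3′ splice site ahead of U2. U2af1, its small subunit, which reads the AG dinucleotide, was at 211, 214 and 209 CPM in controls and 213, 209 and 214 CPM in PCBP1-OE, and the fitted log2 difference was 0.0076 with a standard error of 0.041. U2af2, the large subunit, which binds the polypyrimidine tract, was at 174, 177 and 187 CPM against 192, 184 and 171 CPM, and its groups also overlapped. U2surp (ENSRNOG00000008607, chromosome 8), an SR-related protein that associates with U2 snRNP, stood apart from them. It was at 69.5, 67.2 and 82.1 CPM in controls and 88.8, 89.5 and 85.4 CPM in PCBP1-OE. The groups did not overlap, with control replicate 3 nearest to PCBP1-OE. It rose by 0.27 (log2) with a standard error of 0.066 (adjusted p = 0.0288), and its adjusted p was 0.104 to 0.147 when control replicate 1 or 2 or PCBP1-OE replicate 1 or 2 was omitted.

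Of the 5 Prpf genes of the U4/U6.U5 tri-snRNP, 4 were on the positive side, against 50.5% of all genes tested. Their median log2 fold change was 0.089. Genes of the tri-snRNP outside the rule lay on both sides, such as Snrnp200 at 0.18 and Ppih at -0.16. Prpf3 (ENSRNOG00000025629, chromosome 2), a U4/U6 protein, was at 135, 130 and 142 CPM in controls and 147, 162 and 165 CPM in PCBP1-OE. Every PCBP1-OE library was above every control, and Prpf3 rose by 0.22 (log2) with a standard error of 0.054 (adjusted p = 0.0292). Its call held only when control replicate 3 or no library was left out, and the other omissions gave an adjusted p of 0.0528 to 0.173. Prpf4, the direct partner of Prpf3 in U4/U6, was at 32.8, 36.8 and 39.1 CPM against 36.8, 39.2 and 35.5 CPM (adjusted p = 0.801). Prpf31, also a U4/U6 protein, was at 51.7, 52.8 and 54.5 CPM against 49.1, 45.8 and 49.8 CPM (log2 fold change -0.14, adjusted p = 0.123), with no overlap. The U5 scaffold Prpf8, the member with the most counts, was at 446, 432 and 488 CPM in controls and 477, 503 and 472 CPM in PCBP1-OE, and its groups overlapped (adjusted p = 0.281). Prpf6, which bridges U5 and U4/U6, had an adjusted p of 0.0875 and a log2 fold change of 0.14.

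Among the Prpf genes that act at assembly or activation, Prpf38b and Prpf4b passed the test. Prpf38b (ENSRNOG00000020438, chromosome 2), which encodes a relative of the activation factor Prpf38a, was at 109, 113 and 116 CPM in controls and 133, 133 and 140 CPM in PCBP1-OE. The gap between the groups was wider than the spread within either, and Prpf38b rose by 0.26 (log2, standard error 0.045) with the smallest adjusted p among the members, 0.00886. It kept its call in 4 of the 6 fits with a library left out and was at 0.0521 and 0.0716 without control replicates 1 and 2. Prpf4b (ENSRNOG00000016705, chromosome 17), a protein kinase that phosphorylates tri-snRNP proteins, was at 50.9, 51.2 and 58.0 CPM in controls and 69.9, 63.0 and 61.1 CPM in PCBP1-OE, without overlap. It rose by 0.28 (log2, standard error 0.066, adjusted p = 0.0255), and leaving out control replicate 1 or 2 or PCBP1-OE replicate 1 or 2 gave 0.0754 to 0.127. Prpf38a was at 119, 119 and 118 CPM in controls and 118, 118 and 127 CPM in PCBP1-OE (adjusted p = 0.721). Prpf19, the ubiquitin ligase at the core of the complex that activates the spliceosome, was at 284, 288 and 290 CPM in controls and 262, 266 and 256 CPM in PCBP1-OE. Its groups did not overlap, and with a log2 difference of -0.14 and a standard error of 0.041 its adjusted p of 0.0544 was just above the threshold. DESeq2, limma-voom and the fit without control replicate 3 called it. Over the whole Prpf family 10 of 13 genes were on the positive side, against 50.5% of all genes tested. Of the 13, 5 rose, against 4.45% of all genes tested. Without control replicate 1 or 2 the number that rose was 0, though 5 and 6 had an unadjusted p under 0.05 on that side. It was 1 without PCBP1-OE replicate 1 or 2, 3 without PCBP1-OE replicate 3 and 7 without control replicate 3. Without control replicate 3, 22.3% of all genes were called in either direction.

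The remaining LSm genes include some whose proteins act outside the spliceosome, in mRNA decay, in histone mRNA processing or in P-bodies. Lsm14a (ENSRNOG00000021133, chromosome 1), a P-body component that represses translation, was at 152, 155 and 158 CPM in controls and 178, 174 and 181 CPM in PCBP1-OE. The groups were well apart, and it rose by 0.20 (log2) with a standard error of 0.043 (adjusted p = 0.0184). Even so, it passed only when control replicate 3 was the library left out, with 0.0613 to 0.120 otherwise. Lsm14b, its paralog, had 329, 362 and 458 counts in controls and 526, 469 and 373 counts in PCBP1-OE, and overlapped (log2 fold change 0.28, standard error 0.11, adjusted p = 0.109). Lsm1, which takes the place of Lsm8 in the cytoplasmic decay ring, was at 41.0, 42.2 and 41.1 CPM against 38.7, 39.4 and 38.4 CPM (adjusted p = 0.298). Lsm10 and Lsm11, the LSm proteins of the U7 snRNP that processes histone mRNAs, had 216 to 265 and 69 to 100 counts per library and overlapping groups. Lsm12 was at 275, 262 and 235 CPM in controls and 231, 229 and 255 CPM in PCBP1-OE (adjusted p = 0.268). Snrpep2 had 20 to 40 counts per library. Its counts are uncertain because its sequence was not compared with that of Snrpe.

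**Figure D3:**
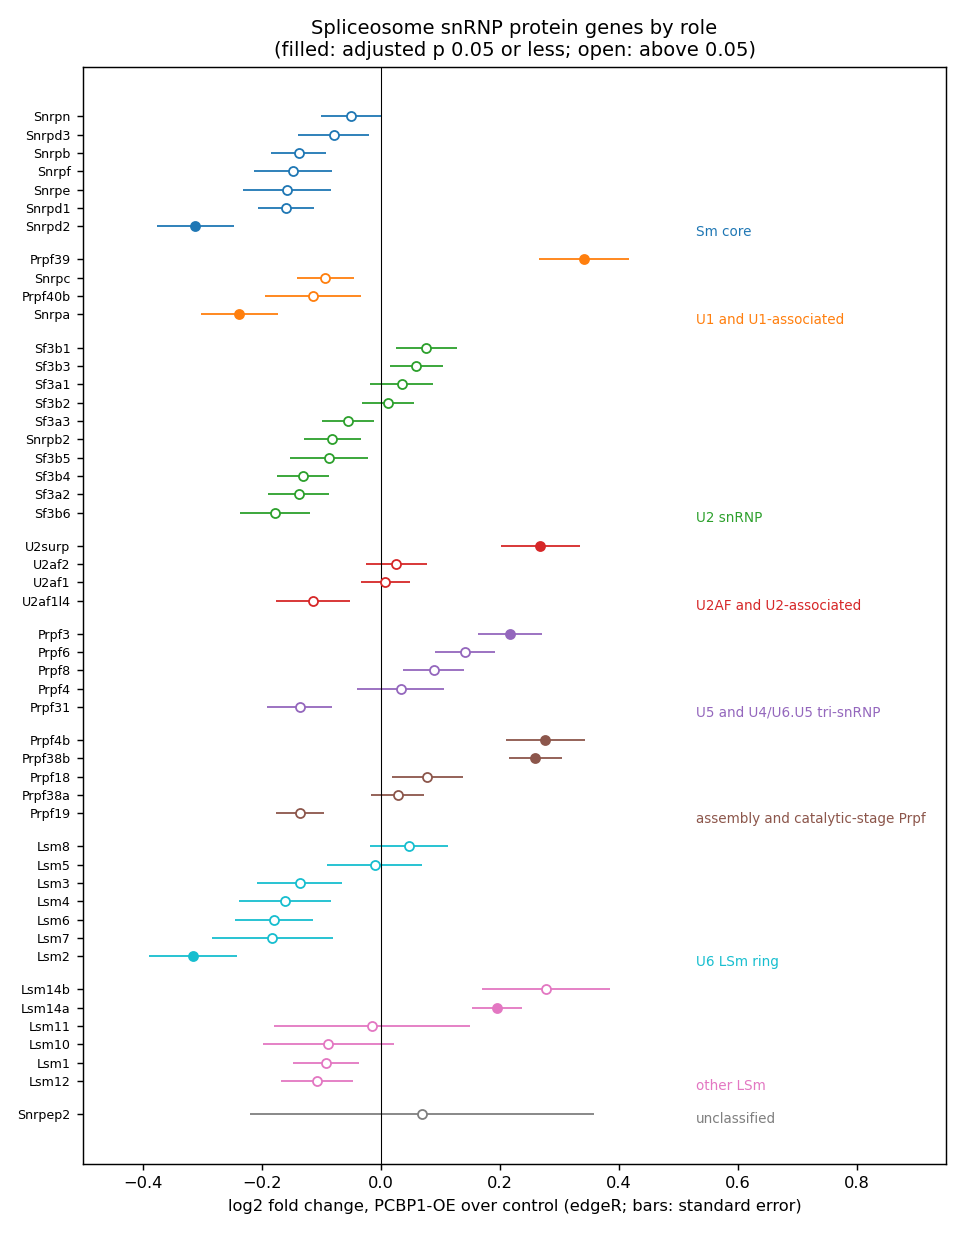
Log2 fold change of PCBP1-OE over control (horizontal axis, bars are the standard error) for 49 of the 50 members (vertical axis), colored by role, with filled points at an adjusted p of 0.05 or less. All 7 Sm genes and 6 of 7 LSm ring genes lie left of 0, 9 of the 12 Prpf genes drawn lie right of it, and no point reaches -0.4 or 0.4.

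**Figure D4:**
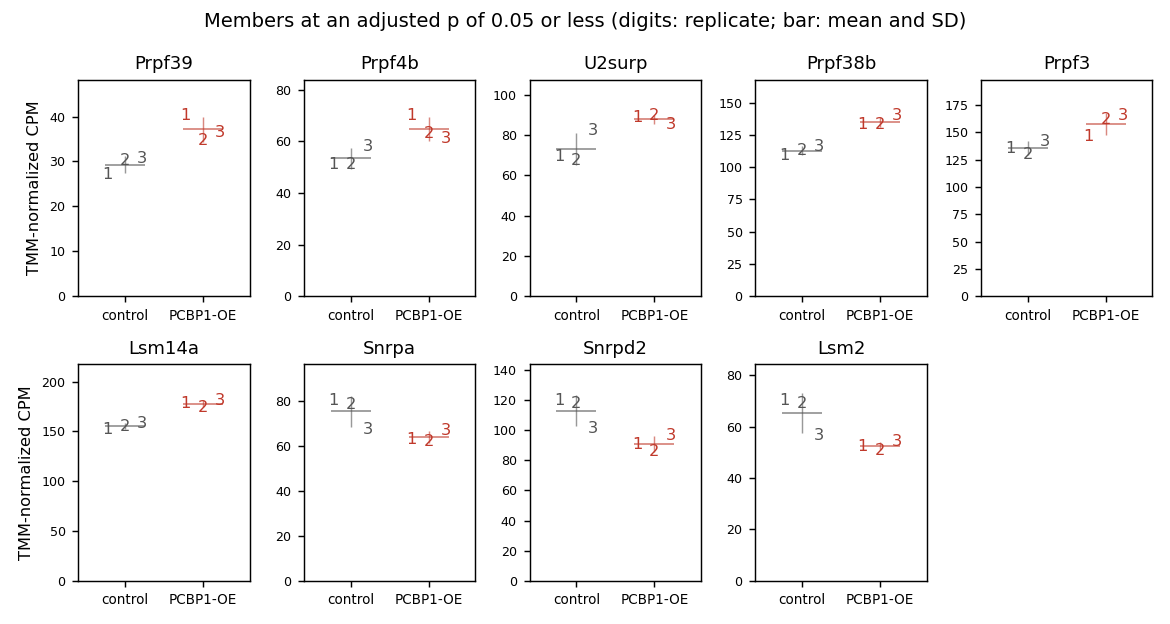
TMM-normalized CPM (vertical axes, from 0) of 9 of the 10 called members in each control (grey) and PCBP1-OE (red) library, drawn as the replicate number, with the mean and SD of each group. The groups do not overlap in any panel, and control 3 is the control nearest to PCBP1-OE in each of them.

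Promoter sequences were compared for members called in opposite directions. RefSeq starts on the assembly GRCr8 were matched by symbol for 44 of the 50 members, and the 250 bases before the start are given for the pair with the largest fall and the pair with the largest rise among the 6 called members with a single listed start. Bases in capitals match, on either strand, the ETS core CGGAAG, the E-box CACGTG, the CCAAT box CCAAT or the GC box GGGCGG. They come from chr1:87926159-87926408 (plus strand), chr1:91618043-91618292 (minus strand), chr6:88824990-88825239 (plus strand) and chr17:30224921-30225170 (minus strand).
Snrpd2: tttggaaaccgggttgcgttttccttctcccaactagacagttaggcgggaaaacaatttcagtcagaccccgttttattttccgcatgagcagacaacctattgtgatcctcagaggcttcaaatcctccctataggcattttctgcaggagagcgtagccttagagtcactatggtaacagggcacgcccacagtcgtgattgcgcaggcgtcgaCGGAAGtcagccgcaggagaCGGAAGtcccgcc
Snrpa: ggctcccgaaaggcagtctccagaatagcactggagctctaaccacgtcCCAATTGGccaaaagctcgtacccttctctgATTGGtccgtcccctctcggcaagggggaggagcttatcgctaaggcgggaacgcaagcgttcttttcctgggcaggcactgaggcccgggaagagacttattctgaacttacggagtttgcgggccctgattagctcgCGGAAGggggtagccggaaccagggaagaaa
Prpf39: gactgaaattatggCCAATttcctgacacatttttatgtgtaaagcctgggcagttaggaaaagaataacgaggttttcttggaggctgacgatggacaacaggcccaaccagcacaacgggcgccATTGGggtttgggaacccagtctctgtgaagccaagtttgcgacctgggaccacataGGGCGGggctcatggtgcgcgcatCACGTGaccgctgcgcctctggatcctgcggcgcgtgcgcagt
Prpf4b: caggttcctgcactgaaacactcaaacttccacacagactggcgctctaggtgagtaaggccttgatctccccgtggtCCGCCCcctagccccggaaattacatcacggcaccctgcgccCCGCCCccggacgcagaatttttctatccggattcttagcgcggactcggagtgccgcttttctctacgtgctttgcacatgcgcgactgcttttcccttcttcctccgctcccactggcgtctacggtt

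Snrpd2 held the ETS core at 2 places close to the start, and Snrpa at 1. Prpf39 and Prpf4b held none in this window, but Prpf39 had 1 E-box and 1 GC box and Prpf4b 2 GC boxes. Snrpa had 3 matches to CCAAT, of which 2 overlap on opposite strands, and Prpf39 had 2. At the first listed start, the ETS core was found in 23 of 44 members (52.3%), in 13.9% of all 33469 listed promoters and in 28% of the 8823 tested genes with one. It was in 8 of 14 Sm and LSm ring genes and in 6 of 12 Prpf genes. The E-box was found in 2 of 44 members (4.55%), 5.59% of all promoters and 8.13% of the tested genes. The 2 members were Prpf3 and Prpf39. CCAAT was in 38.6% of members, 34% of all promoters and 36.2% of the tested genes. The GC box was in 45.5%, 30.5% and 59.5%. These matches describe the letters only.

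The ratio of paralogs within a library does not depend on the scaling, and 5 pairs were compared with a two-sided exact permutation test (4 of them are given here), for which 3 libraries against 3 cannot give a p below 0.1. The log2 ratio of Snrpn to Snrpb counts was -0.92, -0.93 and -0.97 in the controls against -0.86, -0.84 and -0.86 in PCBP1-OE. The groups did not overlap, and the difference of 0.088 had p = 0.1 (exact permutation test, 0.167 after Benjamini-Hochberg adjustment over the 5 pairs). U2af1l4 to U2af1 was at -2.58, -2.56 and -2.63 in the controls against -2.73, -2.69 and -2.72 in PCBP1-OE, a difference of -0.12 with the same p. For Snrpb2 to Snrpa, paralogs in U2 and U1, the groups overlapped, with means of -0.099 ± 0.11 for controls and 0.055 ± 0.036 for PCBP1-OE (SD, n = 3; p = 0.2 by the exact permutation test). Lsm14b to Lsm14a also overlapped, at -3.10 ± 0.13 for controls and -3.02 ± 0.20 for PCBP1-OE (SD, n = 3; p = 0.8 by the exact permutation test). Reads shared by near-identical stretches of paralogs were left out by unique mapping, so these ratios compare countable reads and not molecules.

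**Figure D5:**
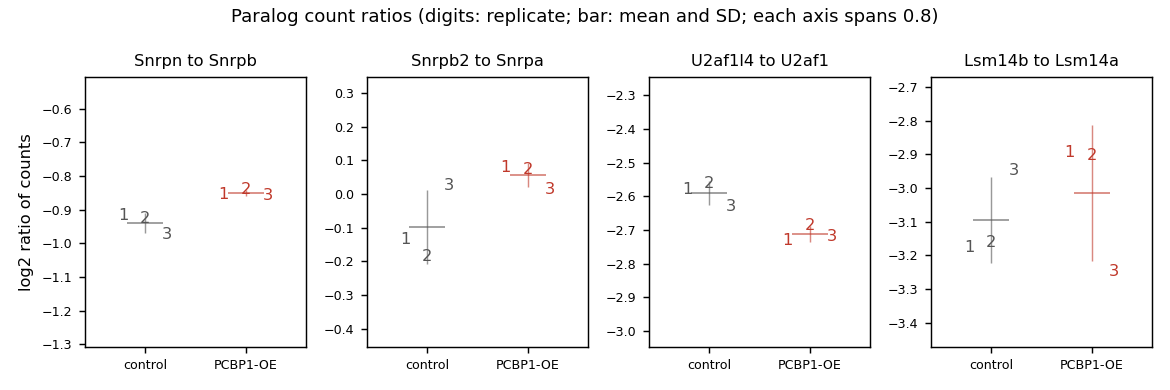
Log2 ratio of counts for 4 paralog pairs (vertical axes, each spanning 0.8) in control (grey) and PCBP1-OE (red) libraries, drawn as the replicate number, with the mean and SD of each group. The groups are apart for Snrpn to Snrpb and U2af1l4 to U2af1, and overlap for the other 2 pairs.

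Other genes of splicing and snRNP assembly were counted from a list of 67 symbols, of which 66 were found, 1 by a synonym, in 68 rows with 66 tested. Of these, 3 (4.55%) rose, a share close to the 4.45% of all genes tested, and 0 fell by edgeR. DESeq2 and limma-voom also called 0 lower. On the negative side 4 had an unadjusted p under 0.05 by edgeR, where 1866 of all 12624 genes tested did. Smndc1, a survival-motor-neuron-related splicing factor, was at 92.4, 97.2 and 96.7 CPM in controls and 106, 107 and 115 CPM in PCBP1-OE (log2 fold change 0.20, standard error 0.048, adjusted p = 0.0268). Dhx15, the helicase that disassembles spliceosomes, rose by 0.17 (log2, adjusted p = 0.0433), and Tgs1, which makes the trimethylguanosine cap of snRNAs, by 0.26 (adjusted p = 0.0406). The median log2 fold change over the list was 0.023. As for the members, the calls depended on which libraries were included. Without control replicate 1 or 2 or PCBP1-OE replicate 1 or 2, 0 were called. In these fits 6 to 9 had an unadjusted p under 0.05, and the matching counts over all genes are not given here. With all libraries 12 of the 66 and 3588 of 12624 genes tested had such a p. The calls numbered 1 without PCBP1-OE replicate 3 and 11 without control replicate 3, beside 5.42% and 22.3% of all genes.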

How the data were processed

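Poly-A RNA from 6 libraries labelled PC12, 3 control and 3 PCBP1-OE, was sequenced after a strand-specific preparation, and each library was assigned to its group by its title. The authors trimmed reads with FASTX-Toolkit, aligned them to Rnor_6.0 with TopHat2 and counted uniquely mapped reads, and the deposited values are raw counts per gene. The submitters' processing notes name a human build, whereas the gene IDs are of rat. How strand was treated in counting, by which tool and with which annotation release was not given in the sources used here, and overlapping genes are therefore uncertain.

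Groups were compared by the quasi-likelihood test of edgeR 4.0.16 (R 4.3.3). Genes were kept by filterByExpr (minimum count 10, total 15) and scaled by TMM. The model was fitted to all genes and adjusted by Benjamini-Hochberg over the 12624 tested. Standard errors are the log2 fold change over the square root of F, and CPM are TMM-normalized. Depth was 19730209 to 22315623 counts per library. Within groups no pair of libraries was a duplicate (chi-square per gene 4.87 to 16.9), but pairs across groups, at 10.8 to 24.9, overlapped this range, and control replicate 1 was nearer to PCBP1-OE replicate 3 than to the other controls. Tests were repeated with DESeq2 1.42.0, limma-voom (limma 3.58.1), RLE or upper-quartile scaling, no filter or at least 1 CPM in 3 libraries, a block for replicate number, and without each library. Paralog ratios had 0.5 added to each count. The code was tested on simulated data.

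The members, gene lists and tests were chosen with earlier results of these data known. Named genes are the members called, the member with the most counts of each role, the 5 largest changes, paralog pairs, and others named after their values were seen. Sequences are from RefSeq (GRCr8), extracted with Python 3.11.15. Gene lengths were not used, so levels are not compared between genes. A single called member is not reported here and stays in the counts. Splicing events were not analysed here.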

Additional observations from a re-analysis of the deposited data

How the results depend on the processing

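The count of members called (10, with 7 higher and 3 lower) stayed within 1.5 times under both scalings, both filters, DESeq2 and limma-voom, except that the number lower was 5 with no filter, with DESeq2 and with limma-voom. With 1 library left out it ranged from 0 to 27, with 0 to 10 higher and 0 to 17 lower, and the same fits gave 48 to 2860 calls over all genes (36 to 1395 higher, 12 to 1465 lower) and 0 to 11 related splicing genes (0 to 9 higher, 0 to 2 lower). No filter gave 2090 calls over all genes, 1079 higher and 1011 lower, and 7 related genes, 6 higher and 1 lower. Upper-quartile scaling and DESeq2 each gave 6 related genes, all 6 higher. The titles number the replicates, but whether same-numbered libraries were paired was not described. Deviations of same-numbered libraries from their group means correlated at -0.078, -0.051 and -0.043. With 3 libraries per group, these correlations cannot settle it. With the replicate number as a block the members called were 0, with 0 higher and 0 lower. The related genes called were 0 (0 higher), and over all genes 16 were called, 14 higher and 2 lower. In that fit 18 members had an unadjusted p under 0.05, and the matching count over all genes is not given here. The cause of these moves was not tested. No called member changed sign under any of the 13 alternatives, nor did a paralog ratio under its own. Of the other members 10 changed sign under at least 1 alternative: Lsm5, Lsm8, Lsm11, Prpf4, Prpf38a, Sf3a1, Sf3b2, Snrpep2, U2af1 and U2af2. Lsm11 and Snrpep2, with at most 100 and 40 counts per library, are limited by depth.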
